A study of Mus musculus with 6 samples.

Results

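Genes of MHC class II antigen presentation were followed in bone from 3 sites of the mouse skeleton, the mandible, the calvaria and the ulna. The 9 genes are H2-Aa, H2-Ab1 and H2-Eb1, H2-DMa and H2-DMb1, H2-Oa and H2-Ob, Cd74 and Ciita. They were chosen by name for their place in the pathway, with earlier results of these data known. Of the 9, 8 are among the 18193 genes with a probe set of their own on the array, and together they are read by 19 of its 45101 probe sets, of which 16 are annotated with 1 gene and 3 with several. The filter on low values was passed by 15 of the 19 (13 annotated with 1 gene), and H2-DMb1 has no probe set of its own.

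Each site was measured on 2 Affymetrix Mouse 430 2.0 arrays, 6 in all, from untreated male mice of 24 to 26 g whose strain the study's methods write as Black CD57. Mandibles were taken with their teeth, calvariae with the sutures removed, and ulnae with soft tissue and epiphyses removed. The study set basal gene expression in bones of the head beside that in a limb bone. The study's methods give the total of mice in the pilot and that they were divided into groups, but how many gave RNA to each array is not given in the sources used here, so p-values measure only the spread between 2 arrays of a site, which may be technical.

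MHC class II molecules are pairs of an alpha and a beta chain that show peptides from endocytosed proteins to CD4 T cells. They are made mainly by B cells, dendritic cells and macrophages, all of which occur in bone marrow. The new pair is held by the invariant chain, which is cut down in the endosome to a fragment that fills the peptide groove. H2-DM exchanges that fragment for peptide, and H2-O, known above all from B cells, binds H2-DM and restrains it. The coactivator CIITA, bound to RFX and NF-Y on the X and Y boxes of their promoters, switches most of these genes on together.

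The start of 5 of the genes is shown because the paired boxes are the element these genes have in common, while their signals differed between sites to very unequal degrees. The lines give the last 100 bases before the RefSeq start on GRCm38.p6, 5′ to 3′ on the strand of the gene, with the core of the X box (GNAAC) and the Y box (GATTGG, an inverted CCAAT) in capitals.
H2-Aa (chr17:34287824-34287923, minus strand): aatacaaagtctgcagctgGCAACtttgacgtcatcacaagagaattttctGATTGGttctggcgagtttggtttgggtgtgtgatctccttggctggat
H2-Eb1 (chr17:34305767-34305866, plus strand): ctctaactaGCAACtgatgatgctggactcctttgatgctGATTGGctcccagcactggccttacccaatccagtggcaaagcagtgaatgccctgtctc
H2-DMb1 (chr17:34153091-34153190, plus strand): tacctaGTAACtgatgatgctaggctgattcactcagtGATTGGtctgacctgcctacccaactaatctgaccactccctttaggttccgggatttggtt
H2-Oa (chr17:34092279-34092378, plus strand): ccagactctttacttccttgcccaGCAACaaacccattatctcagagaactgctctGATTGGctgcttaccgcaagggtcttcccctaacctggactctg
H2-Ob (chr17:34238805-34238904, plus strand): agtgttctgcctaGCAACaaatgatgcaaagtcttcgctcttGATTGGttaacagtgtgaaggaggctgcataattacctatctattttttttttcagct
The letters GNAAC and GATTGG were chosen after these promoters had been seen. In these 5 genes GATTGG began 44 to 62 bases before the start, and GNAAC began 29 to 32 bases before GATTGG. A search of the 250 bases before each start, on both strands, for GNAAC followed by GATTGG 25 to 45 bases on found the pair in 325 of 32851 windows (0.989%). Paired or not, GATTGG was in 14.6% of windows and GNAAC in 79.6%. Windows of 6 of the 9 genes are described. H2-DMa has 2 windows and these letters do not stand as a pair in either. H2-Ab1, Cd74 and Ciita are named only.

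All values are MAS5 signals as deposited, on arrays whose median probe set lay between 30.6 and 33.6. Arrays of the same site correlated at 0.952 to 0.956 and arrays of different sites at 0.797 to 0.862. The sites differed in the tissue around the bone. Summed over 9 markers of epithelium and tooth, signal was 43897 and 44362 in mandible, 189 and 159 in calvaria and 273 and 266 in ulna. Summed over 9 markers of skeletal muscle it was 35528 and 35609 in mandible, 4505 and 4334 in calvaria and 43893 and 44654 in ulna. The 10 osteoblast and osteocyte markers summed to 37846 and 36821 in mandible, 35446 and 38493 in calvaria and 9641 and 9841 in ulna. In whole bone, fewer cells of a type and less RNA per cell cannot be told apart.

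The chains that form the peptide-binding molecule, and the invariant chain, were bright in all 3 sites and lay within 2-fold of each other between sites. H2-Aa, the alpha chain of I-A, gave 1485 and 1376 in mandible, 1434 and 1513 in calvaria and 1606 and 1604 in ulna on its brightest probe set. Both ulna arrays lay above all others, and mandible and calvaria overlapped. H2-Ab1, the beta chain of I-A, gave 312 and 246 in mandible, 368 and 322 in calvaria and 366 and 358 in ulna. The mandible arrays were the lowest, and calvaria and ulna overlapped. H2-Eb1, the beta chain of I-E, gave 606 and 551 in mandible, 633.0 and 650.1 in calvaria and 708 and 705 in ulna. Here the 3 sites did not overlap and ranked mandible, calvaria, ulna. Cd74, the invariant chain, gave 1102 and 979.5 in mandible, 1109 and 1211 in calvaria and 1122 and 1172 in ulna. The mandible arrays were again the lowest, by a narrow margin, and calvaria and ulna overlapped.

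**Figure D1:**
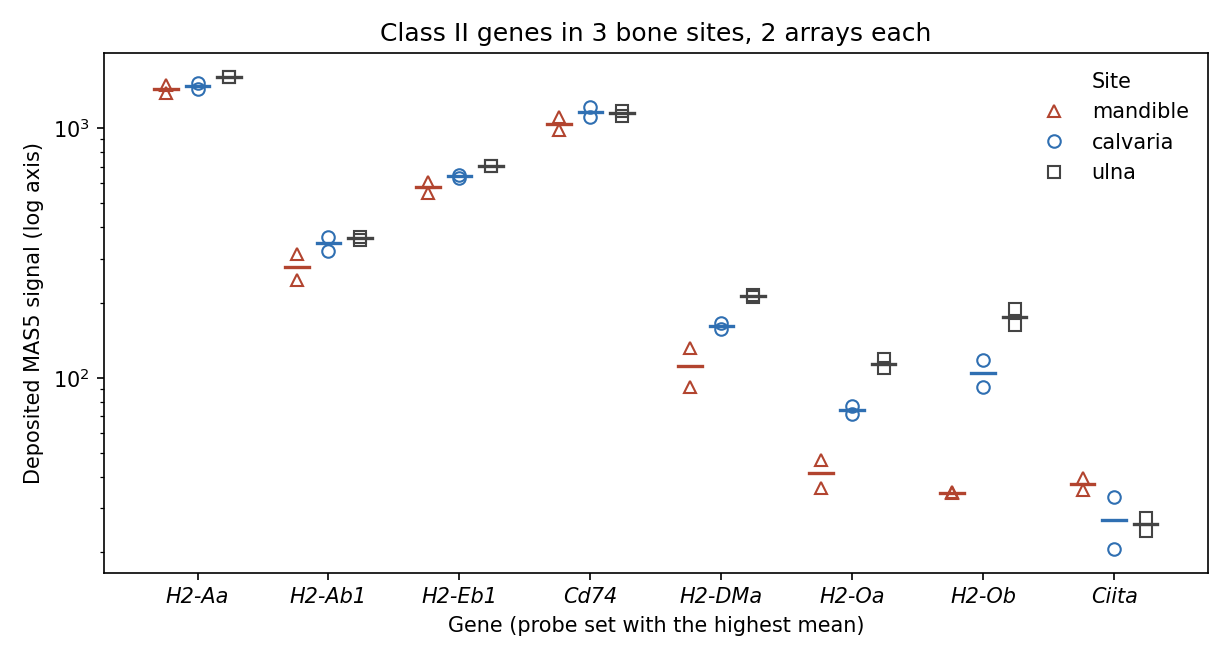
Deposited MAS5 signal (log axis) of the 8 genes that have a probe set of their own, with triangles for mandible, circles for calvaria and squares for ulna, 2 arrays each, and a bar at each mean. The chains and Cd74 sit close together across sites, while H2-Ob spreads between 34.5 in mandible and 189 in ulna.

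Of the genes that edit the loaded peptide, H2-DMa, H2-Oa and H2-Ob spread further, and in each of these 3 every mandible array lay below every calvaria array and every calvaria array below every ulna array. Such separation was common over all genes, with both mandible arrays below both ulna arrays in 42.2%, both mandible arrays below both calvaria arrays in 38.5% and both calvaria arrays below both ulna arrays in 37%. The share of genes with the full order over all 3 sites was not counted. H2-Eb1 had that order too, as did the second brightest probe set of H2-Aa. H2-DMa, the alpha chain of the peptide exchanger H2-DM, gave 131 and 91.7 in mandible, 166 and 157 in calvaria and 211 and 214 in ulna. H2-Oa, the alpha chain of H2-O, gave 46.9 and 36.2 in mandible, 76.9 and 71.9 in calvaria and 109.5 and 118 in ulna. H2-Ob, its beta chain, gave 34.5 and 34.8 in mandible, 92.2 and 118 in calvaria and 163 and 189 in ulna. The mandible values of H2-Ob were barely above the medians of those arrays, 33.6 and 33.2.

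Ciita, the coactivator, was dim throughout, with 39.6 and 35.6 in mandible, 20.6 and 33.4 in calvaria and 27.5 and 24.3 in ulna. It passed the filter on 3 of 6 arrays, both of mandible and 1 of calvaria, whereas the other 14 tested probe sets were above the median on all 6. Mandible held its highest values on this probe set, while calvaria and ulna overlapped. On the other probe sets of Ciita, all below the filter, both mandible arrays lay below both ulna arrays, so its probe sets disagreed. For H2-DMb1, the beta chain of H2-DM, both probe sets also match its neighbour H2-DMb2 and are given as signal of either gene. The brighter gave 128.0 and 127 in mandible, 108 and 128 in calvaria and 138 and 160.4 in ulna. The dimmer gave 86.9 and 69.5 in mandible, 82.5 and 53.7 in calvaria and 80.1 and 89.0 in ulna. Ulna was highest on the brighter of them while mandible and calvaria overlapped, and all 3 sites overlapped on the dimmer, so neither had the order of H2-DMa.

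Mandible against ulna gave the widest contrast. H2-Ob was at 0.182 of its ulna level in mandible, H2-Oa at 0.333 and H2-DMa at 0.476, and all 3 were called lower. The classical chains and Cd74 were below ulna by less than 2-fold, and Ciita did not pass the test. So 3 of the 8 genes with a tested probe set of their own were called lower and 0 higher, where 10.9% of the 12326 genes tested were called lower and 11% higher (limma, 2-fold or more at an adjusted p below 0.05). The median log2 difference was -0.45 over the 8 genes and -0.08 over all genes.

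H2-Ob differed by a log2 of -2.46 (SE 0.21, 95% interval -2.91 to -2.00, adjusted p = 4.1e-06). H2-Oa differed by a log2 of -1.58 (SE 0.22, interval -2.08 to -1.09, adjusted p = 0.000205). Both calls held under all 16 alternative settings in which these probe sets were tested. H2-DMa differed by a log2 of -1.07 (SE 0.17, interval -1.45 to -0.69, adjusted p = 0.000529), close to the 2-fold limit. Its difference was -0.82 without the second mandible array and -0.95 on the values as deposited, neither of which is a call.

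H2-Aa differed by a log2 of -0.28 (SE 0.07, adjusted p = 0.00701), with a ratio of 0.738 to 0.914 by its 95% interval. H2-Ab1 differed by -0.50 (SE 0.13, adjusted p = 0.00854; ratio interval 0.581 to 0.859). H2-Eb1 differed by -0.41 (SE 0.08, adjusted p = 0.00252; ratio interval 0.663 to 0.857). Cd74 differed by -0.26 (SE 0.08, adjusted p = 0.0268; ratio interval 0.735 to 0.949). With the called genes these make 7 of 8 below ulna past the adjusted p alone, where the background is 28.1% of genes. That count was 4 of 8 without the second mandible array, where the adjusted p was 0.0547 for H2-Aa, 0.0727 for H2-Ab1 and 0.173 for Cd74, and it was 5 on the values as deposited. After quantile normalization H2-Aa was at -0.15 (adjusted p = 0.0911) and Cd74 at -0.10 (adjusted p = 0.344), while H2-Eb1 stayed under 0.05 in every setting tried (highest 0.0469). Ciita differed by 0.42 with an interval of -0.53 to 1.37 (adjusted p = 0.461), which leaves room for a difference of more than 2-fold upwards.

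Probe sets of the same gene did not all move alike, and 3 further ones read H2-Aa. The next brightest gave 659.7 and 653.8 in mandible, 752 and 777 in calvaria and 980.0 and 1011 in ulna, with a log2 of -0.72 for mandible against ulna (adjusted p = 2.58e-05). The third gave 612 and 509 in mandible, 445 and 426 in calvaria and 379 and 432 in ulna, with a log2 of 0.35 (adjusted p = 0.0293). The direction for H2-Aa thus differed between its probe sets, and no probe set reached 2-fold. The dimmest gave 52.0 and 53.8 in mandible, 82.0 and 61.3 in calvaria and 73.9 and 69.2 in ulna, with a log2 of -0.55 (adjusted p = 0.0849). Of the other probe sets of H2-Ab1, the brighter gave 310 and 275 in mandible, 270.2 and 235 in calvaria and 289 and 327 in ulna, with a log2 of -0.19 (adjusted p = 0.245). The dimmer gave 152 and 95 in mandible, 127 and 117 in calvaria and 152 and 104 in ulna, with a log2 of -0.18 (adjusted p = 0.573). On both of these mandible overlapped another site. The probe sets of H2-DMb1 or H2-DMb2 differed by -0.34 (adjusted p = 0.122) and -0.24 (adjusted p = 0.479).

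**Figure D2:**
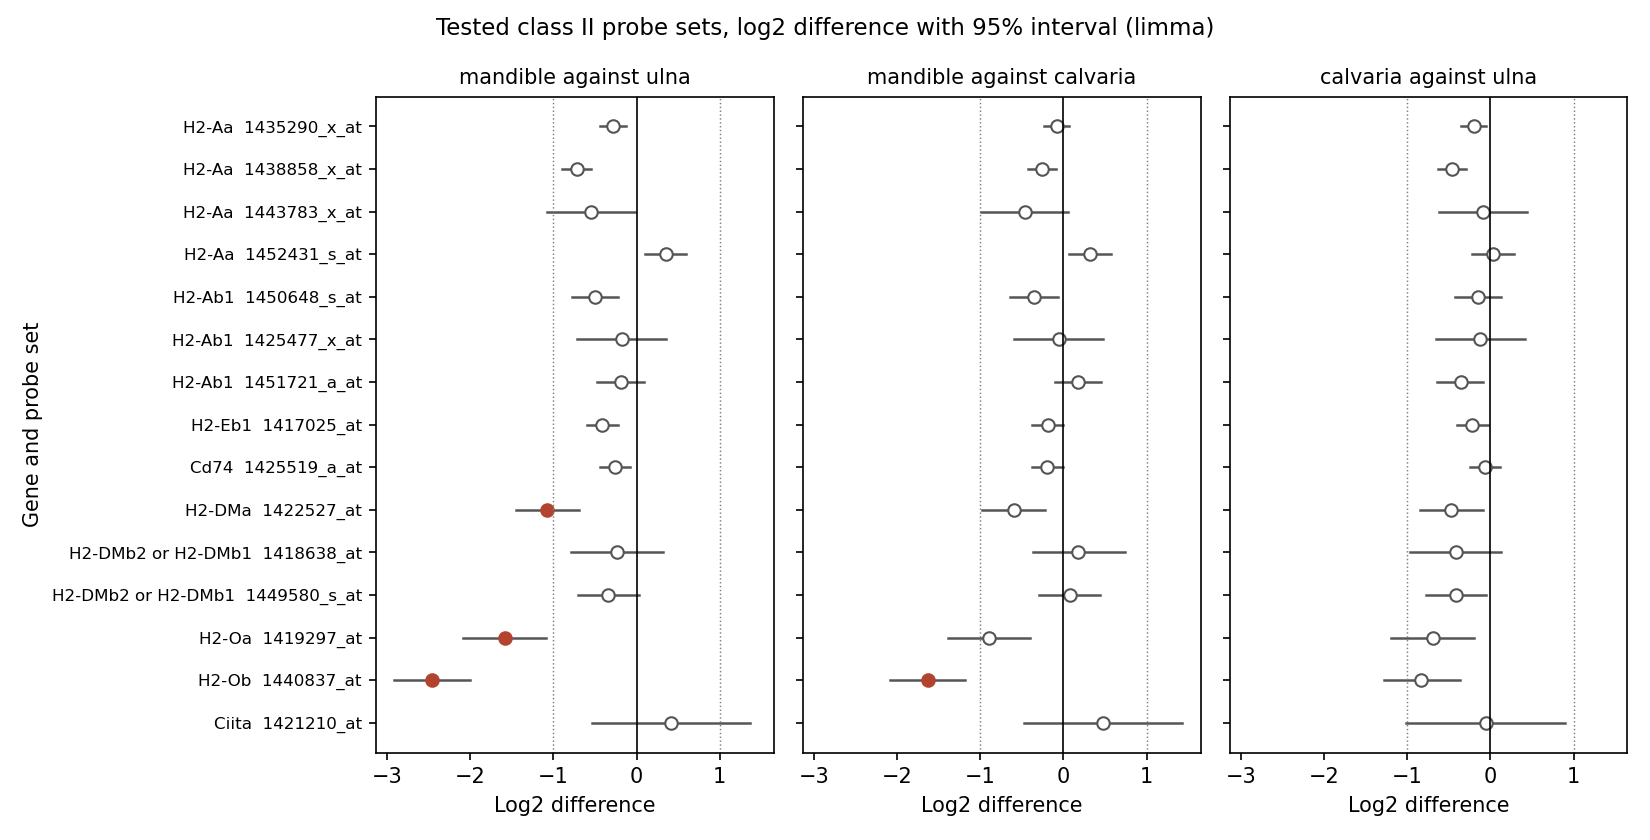
Log2 difference (horizontal axis) with 95% interval from limma for the 15 tested probe sets in each comparison, filled where called, with dotted lines at 2-fold. H2-Ob is at -2.46 for mandible against ulna and -1.63 for mandible against calvaria, and no probe set is filled for calvaria against ulna.

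Mandible against calvaria, a pair of bones of the head, repeated the order with smaller steps. H2-Ob was at 0.323 of its calvaria level in mandible and was the 1 gene of 8 called lower, with 0 called higher, where 4.01% of genes were called lower and 5.14% higher. H2-Oa was at 0.539 of its calvaria level and H2-DMa lay below calvaria by a log2 of 0.60, both short of 2-fold. The chains and Cd74 did not pass the adjusted p on their brightest probe sets.

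H2-Ob differed by a log2 of -1.63 (SE 0.21, 95% interval -2.09 to -1.18, adjusted p = 0.000229). H2-Oa differed by -0.89 (SE 0.22, adjusted p = 0.0156) and reached -1.07 (adjusted p = 0.0205), a call, without the first mandible array. Without either calvaria array or the second mandible array its adjusted p was 0.0587 to 0.0868. H2-DMa differed by -0.60 (SE 0.17, adjusted p = 0.0309), but by -0.35 (adjusted p = 0.183) without the second mandible array. These make 3 of 8 genes below calvaria past the adjusted p alone, against 16.2% of all genes, and 1 of 8 without either calvaria array or the second mandible array. H2-Ab1 differed by -0.35 (adjusted p = 0.073), Cd74 by -0.20 (adjusted p = 0.119), H2-Eb1 by -0.19 (adjusted p = 0.133), H2-Aa by -0.08 (adjusted p = 0.438) and Ciita by 0.48 (interval -0.48 to 1.43, adjusted p = 0.481). The median over the 8 genes was -0.28, beside -0.09 over all genes. The comparisons share arrays, so they are not independent of each other.

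Between calvaria and ulna, 0 of the 8 genes were called in either direction by limma, where 4.54% of genes were called lower and 8.36% higher. An unadjusted p below 0.05 was reached by 5 of the 8 and by 44.7% of all genes. H2-Ob was at 0.564 of its ulna level in calvaria and H2-Oa at 0.619, the pair past the adjusted p alone, against 18.4% of all genes. H2-Ob differed by a log2 of -0.83 (SE 0.21, adjusted p = 0.0115), and by -1.01 (adjusted p = 0.0211), a call, without the second calvaria array. H2-Oa differed by -0.69 (SE 0.22, adjusted p = 0.0393), but its adjusted p was 0.0955 to 0.171 whichever of the calvaria and ulna arrays was left out. For H2-Ob it was 0.0944 without the first calvaria array and 0.0961 without the second ulna array. H2-DMa differed by -0.47 (adjusted p = 0.0645), H2-Eb1 by -0.22 (adjusted p = 0.0785), H2-Aa by -0.20 (adjusted p = 0.0525), H2-Ab1 by -0.15 (adjusted p = 0.428), Cd74 by -0.06 (adjusted p = 0.624) and Ciita by -0.05 (adjusted p = 0.943). The second probe set of H2-Aa in order of brightness differed by -0.46 (adjusted p = 0.00109). The median over the 8 genes was -0.21, beside -0.05 over all genes.

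The spread of H2-DMa, H2-Oa and H2-Ob was also read within each array, against the mean log2 value of H2-Aa, H2-Ab1, H2-Eb1 and Cd74 on that array with the ulna mean set to 0, which cancels any scaling of the whole array. H2-Ob stood at -2.19 and -1.99 in mandible, -0.84 and -0.50 in calvaria and -0.11 and 0.11 in ulna. H2-Oa stood at -1.13 and -1.31 in mandible, -0.48 and -0.59 in calvaria and -0.05 and 0.05 in ulna. H2-DMa stood at -0.54 and -0.87 in mandible, -0.27 and -0.36 in calvaria and -0.01 and 0.01 in ulna. In all 3 genes the sites did not overlap on this measure and kept the order mandible, calvaria, ulna. How many of all genes do so on this measure was not counted, and separation of sites was common before it was applied. With 2 arrays against 2, an exact two-sided permutation test cannot go below p = 0.333, so the differences on this scale are given as values. Such a ratio shows that the genes changed unequally, not that the chains stayed level.

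**Figure D3:**
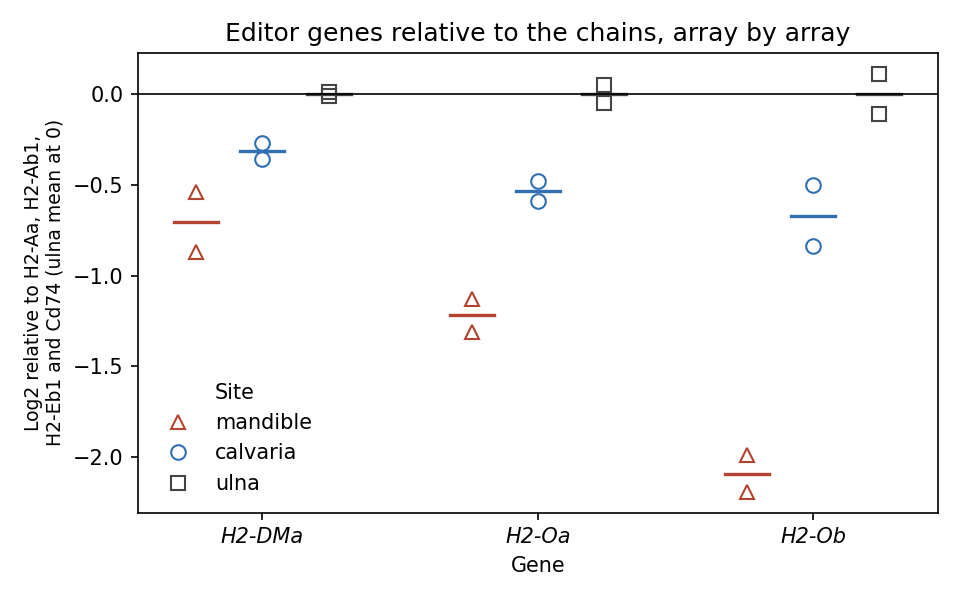
Log2 value of H2-DMa, H2-Oa and H2-Ob relative to the mean of H2-Aa, H2-Ab1, H2-Eb1 and Cd74 on the same array (vertical axis, ulna mean at 0), with triangles for mandible, circles for calvaria, squares for ulna and bars at the means. H2-Ob lies at -2.19 and -1.99 in mandible, and the 3 sites do not overlap for any of the genes.

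Genes that act before and beside these molecules did not all move one way between mandible and ulna. Of 15 tested genes of class II transcription, 2 were called lower and 0 higher (median -0.50), a share near the 10.9% of all genes. Nfyb, a subunit of the Y box factor NF-Y, gave 226 and 272 in mandible against 521 and 565 in ulna (log2 -1.25, adjusted p = 3.8e-05). Irf2, an interferon regulatory factor, gave 87.7 and 102 in mandible against 184 and 178 in ulna (log2 -1.06, adjusted p = 0.000304), a call lost without the first mandible array (-0.94) and under other scalings. Calvaria against ulna also had Nfyb lower (306 and 241 in calvaria, log2 -1.08, adjusted p = 0.000195), as the only call among the 15, but it was at -0.91 without the second calvaria array, and mandible against calvaria had none.

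Of 10 tested genes of endosomal processing, 1 was called higher and 1 lower (median 0.03), near the 11% and 10.9% of all genes. Both were cathepsins that cut the invariant chain. Ctsl, the protease for that step in thymic epithelium, gave 2172 and 2155 in mandible against 830 and 853 in ulna (log2 1.25, adjusted p = 1.68e-07). Ctss, the protease for it in B cells and dendritic cells, gave 1010 and 987 in mandible against 1946 and 1899 in ulna (log2 -1.06, adjusted p = 4.53e-07), and its call was lost under other scalings, where it lay at -0.90 at the least. The other comparisons called none of the 10 (median -0.19 for mandible against calvaria and 0.26 for calvaria against ulna). Among 5 genes of ubiquitin and trafficking (median -0.82), 1 was called lower in mandible than in ulna, beside 10.9% of all genes. This was Marchf1, the ubiquitin ligase that takes class II molecules off the surface. It gave 32.8 and 30.0 in mandible, 47.5 and 55.7 in calvaria and 105 and 79.9 in ulna, a log2 of -1.66 for mandible against ulna (adjusted p = 0.000543).

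Class I presentation, which shows cytosolic peptides to CD8 T cells, had 10 of 14 tested genes lower and 2 higher in mandible than in ulna past the adjusted p alone (median -0.54), where 28.1% of all genes were lower. The 2 higher ones were the chaperones Pdia3 (log2 0.87) and Calr (log2 0.31). Of the 14, 1 was called lower, beside 10.9% of all genes. This was Tap1, a subunit of the peptide transporter, with 86.1 and 58.7 in mandible, 138 and 150.2 in calvaria and 171 and 152 in ulna (log2 -1.30, adjusted p = 0.000344). It was also the 1 call of the list for mandible against calvaria (log2 -1.06, adjusted p = 0.00299; median of the list -0.54), a call lost without the second mandible array (-0.79) or the second calvaria array (-0.99), and calvaria against ulna had none (median 0.03). Among costimulation genes, 0 of 5 tested were called in either comparison with mandible, and Cd80 and Icosl were called lower in calvaria than in ulna. Over all genes, 4.54% were called lower in calvaria than in ulna. Icosl, the ligand of ICOS, gave 23.6 and 35.6 in calvaria against 66.3 and 84.6 in ulna (log2 -1.45, adjusted p = 0.00687), but its adjusted p was 0.0655 without the second ulna array. Cd80, a ligand of CD28, gave 15.6 and 13.6 in calvaria against 44.9 and 34.2 in ulna (log2 -1.50, adjusted p = 0.0451). It passed the filter through the ulna arrays alone and lay below the array medians in calvaria and mandible. The filter thus favoured a value lower than in ulna. The call was lost whichever of the 4 calvaria and ulna arrays was left out, with the log2 between -1.69 and -1.31.

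Markers of the cells that make class II molecules were partly lower in mandible, and the lists are given in turn. Each list is to be read against all genes. Of these, 10.9% were called lower in mandible than in ulna and 4.01% lower in mandible than in calvaria. Of 14 tested B cell markers, 6 were called lower than in ulna and 5 lower than in calvaria (medians -0.95 and -0.90), and 0 were called between calvaria and ulna (median -0.04). On the values as deposited 3 were called lower in mandible than in calvaria. Their summed signal was 2473 and 2409 in mandible, 4226 and 4420 in calvaria and 4049 and 3917 in ulna. Vpreb1, part of the surrogate light chain of early B cells, gave 91.6 and 78.2 in mandible, 209 and 355 in calvaria and 256 and 288 in ulna (log2 -1.80 for mandible against ulna, adjusted p = 6.09e-05). Cd37, a tetraspanin of B cells, gave 132 and 108 in mandible, 322 and 295 in calvaria and 359 and 379 in ulna (log2 -1.74, adjusted p = 1.82e-06). Fcer2a had the largest change of the list for mandible against ulna (log2 -1.92), but its mandible arrays disagreed. It gave 50.4 and 9.84 in mandible, 36.4 and 33.5 in calvaria and 74.2 and 81.3 in ulna. Its call was lost under 5 of 15 alternative settings, and its log2 was -0.75 without the second mandible array. Between calvaria and ulna, 2 of the markers were higher and 2 lower past the adjusted p alone. Of the list, Cr2 alone of the genes matched on the array was below the filter.

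Of 10 tested dendritic cell markers, 3 were called lower in mandible than in ulna and 3 lower than in calvaria (medians -0.94 and -0.72), and 0 between calvaria and ulna (median 0.03). Of the 3 markers called lower in mandible than in calvaria, Flt3 lost its call under 13 of 15 alternative settings, the values as deposited among them. Irf4 lost its call under 5. Without the second mandible array both lay at -0.79. Their sums were 652 and 682 in mandible, 1014 and 1094 in calvaria and 1313 and 1335 in ulna. Irf8 set the place of ulna in that sum, since without it the sums were 491 and 480.1 in mandible, 628 and 661 in calvaria and 570.2 and 602 in ulna. Irf8, a transcription factor of dendritic cells and monocytes, gave 161 and 202 in mandible, 385 and 434 in calvaria and 743 and 733 in ulna (log2 -2.15 for mandible against ulna, adjusted p = 2.93e-07). Itgax, the integrin CD11c, gave 31.9 and 35.5 in mandible, 51.0 and 44.8 in calvaria and 82.5 and 82.9 in ulna (log2 -1.41, adjusted p = 0.00137). Batf3, Xcr1 and Ccl22 were below the filter.

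Of 14 macrophage and monocyte markers, 1 was called lower in mandible than in ulna (median -0.41), a share not above the 10.9% of all genes. Against calvaria 2 were lower in mandible (median -0.64), and between calvaria and ulna 0 of these markers were called (median 0.18). Their sums were 4592 and 4493 in mandible, 6861 and 7217 in calvaria and 6193 and 5981 in ulna. Ccr2, the chemokine receptor of inflammatory monocytes, gave 240.3 and 228 in mandible, 593 and 566 in calvaria and 940.4 and 1054 in ulna (log2 -2.21 for mandible against ulna, adjusted p = 4e-08). Its order was not that of the list. Between calvaria and ulna, 6 of the markers were higher in calvaria and 1 lower past the adjusted p alone. Cd163 gave 75.3 and 98.3 in mandible, 199 and 215 in calvaria and 130 and 132 in ulna. Marrow lineages that do not present on class II were lower in mandible than in ulna too, with 5 of 9 neutrophil markers and 6 of 6 erythroid markers called lower (medians -1.06 and -1.72). T cell markers were dim, with Cd3e, Cd3g, Cd8b1, Cd5 and Themis below the filter and 2 of the 4 tested, Cd2 and Cd3d, called lower in mandible than in ulna. Both calls were lost without the first ulna array (log2 -0.89 for Cd2, and -2.34 with an adjusted p of 0.0634 for Cd3d), and also without other single arrays. Cd8a, also tested, was called higher in mandible than in calvaria (57.6 and 55.4 against 23.7 and 8.97, log2 1.91), where 5.14% of all genes were. It was also called lower in calvaria than in ulna (64.7 and 36.8 in ulna, log2 -1.82), beside 4.54% of all genes. Its calvaria values lay below the medians of their arrays. The 2 calls were lost under 5 and 4 of 15 alternative settings. Of the 2 Langerhans cell markers, Cd207 was below the filter and Epcam was called higher in mandible than in ulna (89.3 and 79.6 in mandible against 10.5 and 55.3 in ulna, log2 1.69, adjusted p = 0.04). Epcam is also made by other epithelia, and its difference was 0.48 (adjusted p = 0.229) without the first ulna array. The part of these cell populations in the class II differences was not tested.

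**Figure D4:**
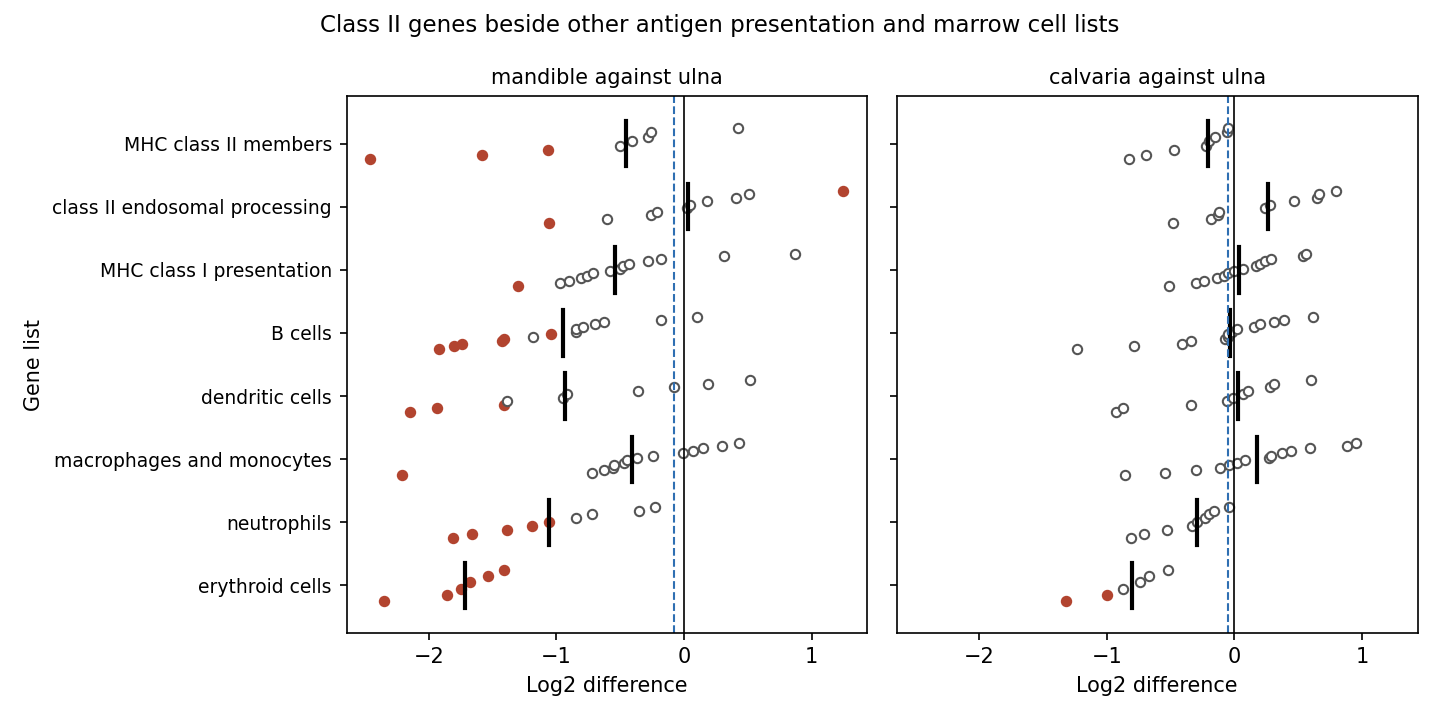
Log2 difference (horizontal axis) of each tested gene in 8 lists for mandible against ulna and calvaria against ulna, filled where called, with a bar at the list median and a dashed line at the median of all genes. In mandible the B cell and dendritic cell medians (-0.95 and -0.94) lie further from 0 than that of the class II genes (-0.45), and in calvaria they lie at -0.04 and 0.03.

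The profile that H2-Aa, H2-Ab1, H2-Eb1 and Cd74 shared over the 6 arrays was shallow, at -0.10 and -0.28 in mandible, 0.01 and 0.02 in calvaria and 0.16 and 0.19 in ulna on the log2 scale, centred on its mean. A profile with r of at least 0.95 to it was found for 418 of 12318 genes, over 6 arrays that fall into 3 pairs. The 5 closest by root mean square difference, 0.0169 to 0.0364, were Tfr2, Cdc40, Arid1a, Ostf1 and Dnajc5. They are transferrin receptor 2, a splicing factor, a subunit of a chromatin remodeller, an osteoclast stimulating factor and a cochaperone of synaptic vesicles. Tfr2, the closest, gave 65.6 and 58.9 in mandible, 68.1 and 70.1 in calvaria and 72.9 and 72.2 in ulna.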

How the data were processed

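RNA of bone from 3 sites was labelled in 1 cycle and hybridised to 6 arrays, 2 a site. The authors made the deposited values with MAS5, a linear intensity called signal, scaled to an equal trimmed mean for all arrays. These were divided by the median of the array and put on the log2 scale without an offset. A probe set entered the fit if it exceeded that median on 2 or more of the 6 arrays, which left 25233 (55.9%) for 12326 genes, and 64 control probe sets were dropped. limma 3.58.1 under R 4.3.3 fitted a mean per site with a variance trend (residual degrees of freedom 3, prior 7.67), with Benjamini-Hochberg adjustment over everything tested in a comparison. Calls needed 2-fold or more and an adjusted p below 0.05. The fit was tested on simulated data. Each gene was represented by its brightest tested probe set. Between arrays of 1 site the median SD was 0.138 (log2), and precision is limited by having 2 arrays.

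Symbols came from the array annotation, updated through a mouse gene table, giving 1 gene to 34945 probe sets, several to 932 and none to 9224. Promoters are RefSeq windows on GRCm38.p6. Named were all members, up to 3 called genes of a list with the largest change (fewer are printed for some lists), and the 5 genes closest to the shared profile. The members and lists were chosen with earlier results of these data known. Alternatives changed the scaling, offset, filter, moderation, arrays and replicate block.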

Additional observations from a re-analysis of the deposited data

How the results depend on the processing

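Of 108 counts of called genes recomputed under 18 alternatives, 103 stayed within 1.5 times of the reported count and 0 genes were called higher under any. That total says little of stability. It includes the counts called higher, which were 0 throughout, and a fall from 3 to 2 is within 1.5 times. With no fold limit, 7 genes were lower in mandible than in ulna, 3 lower in mandible than in calvaria and 2 lower in calvaria than in ulna. Leaving out each array in turn gave 2 to 3, 1 to 2 and 0 to 1, the lone array of a site then being taken to vary like the others. H2-Ob without the second calvaria array and H2-Oa without the first mandible array were the additions, and H2-DMa without the second mandible array was the loss. H2-DMa for mandible against ulna also fell short of 2-fold on the values as deposited (-0.95), after quantile normalization (-0.93) and at the 75th percentile (-0.97), and its adjusted p was 0.0538 without moderation. The median of all tested probe sets for mandible against ulna was -0.13 as reported and -0.02 on the values as deposited, a shift the small differences of the chains should be read against.

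Directions that turned belonged to differences that were not called. For calvaria against ulna these were Ciita (0.02 as deposited, -0.40 to 0.29 leaving out arrays), Cd74 (0.01 as deposited, 0.07 after quantile normalization) and, leaving out arrays, H2-Aa on its dimmest probe set (-0.30 to 0.12) and on the one higher in mandible (-0.08 to 0.13). Leaving out arrays also turned the dimmest H2-Ab1 probe set (-0.51 to 0.15 for mandible against ulna, -0.39 to 0.27 for mandible against calvaria, -0.39 to 0.15 for calvaria against ulna) and both probe sets of H2-DMb1 or H2-DMb2 for mandible against calvaria (-0.05 to 0.20 and -0.13 to 0.49).

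Arrays with the same replicate number did not deviate together over the tested probe sets (correlations -0.012, -0.005 and 0.006). Whether arrays of the same number came from the same mice is not given and cannot be told from these correlations. With the replicate number as a block the counts called lower were again 3, 1 and 0, and H2-Oa for calvaria against ulna had an adjusted p of 0.0514. Ciita, dim and near the array median, had the widest standard error of the tested class II probe sets (0.43), and H2-Ob in mandible also lay near the array median.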

Other observations

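Other genes of the class II region were read by dim probe sets. H2-DMb2, the second beta chain of H2-DM, gave 66.6 and 56.3 in mandible, 100.3 and 85.8 in calvaria and 99.6 and 154 in ulna on its brightest tested probe set (log2 -1.13 for mandible against ulna, adjusted p = 0.00286). That call was lost without the second ulna array, at -0.81. Its 2 other probe sets differed by -2.31 (adjusted p = 0.000722) and -0.95 (adjusted p = 0.0167). H2-Eb2, an I-E beta chain gene, was below the filter with 5.10 and 4.81 in mandible, 17.7 and 12.5 in calvaria and 28.7 and 30.7 in ulna. H2-Ea, the alpha chain partner of H2-Eb1, was below the filter on all 3 of its probe sets, between 1.57 and 19.2 over the 6 arrays, while H2-Eb1 read 551 or more. The probe set shared by H2-Ob and Gm20506 was also below the filter, with 2.53 and 1.48 in mandible, 18.7 and 16.7 in calvaria and 24.7 and 52.3 in ulna. Of the other probe sets of members below the filter, the second of H2-DMa read 1.56 to 21.3, and those of Ciita read 8.52 and 2.01 in mandible, 6.92 and 9.67 in calvaria and 16.2 and 22.8 in ulna, and 1.73 and 1.08 in mandible, 18.4 and 5.86 in calvaria and 18.2 and 7.09 in ulna.

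A comparison chosen after the values were seen set each member against the mean log2 value of the 14 B cell markers on the same array. On that scale mandible stood above ulna by 0.75 for H2-Aa, 0.53 for H2-Ab1, 0.62 for H2-Eb1 and 0.77 for Cd74, and differed by -0.04 for H2-DMa, -0.55 for H2-Oa and -1.43 for H2-Ob. Calvaria against ulna differed by -0.11 for H2-Aa, 0.03 for Cd74, -0.60 for H2-Oa and -0.74 for H2-Ob. These are values with no test. By profile over the 6 arrays, Syk, Cd177, Pirb, Prodh and Gm6958 were the closest genes to H2-Ob (root mean square difference 0.114 to 0.177). A profile with r of at least 0.95 to H2-Ob was found for 1028 genes. Closest to H2-Oa were Agtr1a, Cdc45, Zfand4, Gpnmb and Gm8369, with 969 genes at that r. Both were looked up after the values were seen.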
